A study of Arabidopsis thaliana with 8 samples.

Results

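Aquaporins are channel proteins that let water, and in some cases small solutes, cross membranes. In plants the plasma membrane intrinsic proteins (PIPs) line the route across the cell surface and the tonoplast intrinsic proteins (TIPs) line the membrane of the vacuole, and together they are known as the main aquaporins of leaves. PIPs fall into PIP1 and PIP2 classes that assemble into mixed tetramers, in which PIP2 proteins carry most of the water flow and help PIP1 proteins reach the plasma membrane. TIPs are abundant in the large central vacuoles of expanding and mature cells.

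The transcripts described here belong to 10 genes of *Arabidopsis thaliana*, 4 TIPs (*TIP1;1* or *GAMMA-TIP1*, *TIP1;2* or *GAMMA-TIP2*, *TIP2;1* or *DELTA-TIP1*, and *TIP2;2* or *DELTA-TIP2*) and 6 PIPs (*PIP1;1* or *PIP1A*, *PIP1;2* or *PIP1B*, *PIP2;1* or *PIP2A*, *PIP2;2* or *PIP2B*, *PIP2;6* or *PIP2E*, and *PIP2;7* or *PIP3A*), out of 34133 genes with a value. The second name of each, which RefSeq lists, is used below. They were picked by gene identifier after their levels in these samples were known, so their differences between groups are given as a description, without a test. The study measured polyadenylated transcripts by RNA-seq in whole rosettes of the Col-0 accession, in wild type (WT) and in *ros1*. The *ros1* line has a T-DNA insertion (SALK_064264) in the untranslated leader of *ROS1*, the gene of a DNA glycosylase that removes methylated cytosine. The study describes the allele as hypomorphic, with the transcript lowered and not lost. Plants were 3 weeks old, and were either left as controls or given imazethapyr (IM) at 10.6 g ha-1, a herbicide that blocks acetohydroxyacid synthase in branched-chain amino acid synthesis, together with 0.5% v/v of the adjuvant Dash. Rosettes were collected at 48 h. The 4 groups are called WT control, *ros1* control, WT IM and *ros1* IM, and each had 2 libraries of 2 plants. Whether control plants received Dash is not stated, so herbicide and adjuvant cannot be told apart. The mutant line is 1 insertion allele.

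The deposited level of a gene is 1 FPKM (fragments scaled to the length of the transcript and to the total of mapped fragments) for each group, estimated by the authors over both libraries. No value of a single library was at hand, so the spread between replicates is unknown, no value below has an SD, and no difference below was tested. Read counts per gene and library were not analysed here, so the number of reads behind each value is unknown. A fold is the ratio of 2 pooled FPKM values, and "lower" or "higher" states that order alone. *ROS1* itself had an FPKM of 25 in WT control, 16.7 in WT IM, 19.0 in *ros1* control and 4.08 in *ros1* IM, so its transcript was detected in the groups labelled *ros1*. It was 1.32-fold lower in *ros1* among controls and 4.09-fold lower among treated plants. The levels that the study cites for the lowered transcript are those of WT IM and *ros1* IM. Which part of the transcript these reads cover is not given. In rosettes, a smaller number of cells of a type and less RNA per cell cannot be told apart.

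All 10 genes carry the aquaporin signature, 2 short boxes coding for asparagine, proline and alanine (NPA) that meet in the middle of the pore. The stretches below come from the coding sequences of the TAIR10.1 annotation by RefSeq and are shown because the boxes define the family and the codon after the second box differs between the classes. The capitals mark the 9 bases of the NPA box, and 4 genes stand for the TIP1, TIP2, PIP1 and PIP2 classes.
GAMMA-TIP1 first box: ggacacgttAACCCTGCCgtcactttcggt
GAMMA-TIP1 second box: gcctccatgAATCCCGCCgtggctttcgga
DELTA-TIP1 first box: ggccatgtgAACCCAGCCgtcacttttggt
DELTA-TIP1 second box: ggatccatgAACCCAGCAcgttcctttgga
PIP1B first box: ggacacatcAACCCAGCGgttacgttcggt
PIP1B second box: actggaatcAACCCAGCAagaagtcttgga
PIP2A first box: ggtcacattAACCCAGCGgtgacatttggg
PIP2A second box: accggaattAACCCGGCAaggagtttcgga

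A script found 20 boxes, 2 in each of the 10 genes. The codon after the first box was a valine codon in all 10. After the second box it was an arginine codon in 8 genes, the TIP2 and PIP genes, and a valine codon in 2, *GAMMA-TIP1* and *GAMMA-TIP2*. That position is known as part of the narrow selectivity filter of the pore. Over the longest coding sequences, identity was 80.8% between the TIP1 genes, 70.7% between the TIP2 genes, 83.2% between the PIP1 genes and from 62.3% to 74.4% between PIP2 genes, and TIP with PIP pairs shared from 41.9% to 48.5%. Gaps counted as differences, and both low ends came from pairs with *PIP2B*. Its longest coding sequence had 987 bases, beside 843 to 870 in the other PIP2 genes of the 10. PIP2 pairs without *PIP2B* shared from 70.1% to 72.2%.

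In control rosettes of the wild type these were abundant transcripts. All 10 had an FPKM of at least 100, from 151.8 for *PIP1A* to 1196 for *GAMMA-TIP1*, with a median of 449.9, and 9 of the 10 ranked among the 1000 highest genes. Their FPKM summed to 5554, which was 85.7% of the sum over the 35 aquaporins of the family. The sum was 1201 in WT IM, 2942 in *ros1* control and 517 in *ros1* IM. It was thus 4.62-fold lower after treatment in WT and 5.70-fold lower in *ros1*. Between genotypes it was 1.89-fold lower in *ros1* among controls and 2.33-fold lower among treated plants. The 10 genes held a smaller share of the family's sum in the other groups than in WT control. It was 74.5% in WT IM, 80.2% in *ros1* control and 63.5% in *ros1* IM, where 12 of the other aquaporins had no value.

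**Figure D1:**
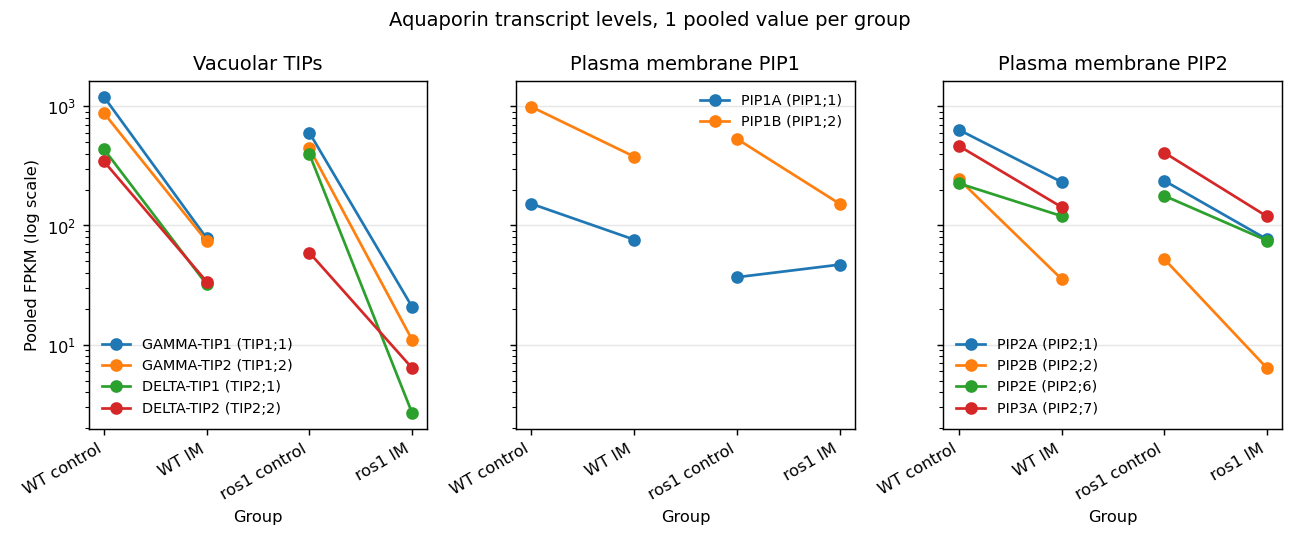
Pooled FPKM (log scale) of the 10 aquaporins in the 4 groups, in panels for TIPs, PIP1 and PIP2, where a line joins control and IM of 1 genotype and each point is 1 value over 2 libraries with no error. The TIP lines run most steeply, down to 2.69 for *DELTA-TIP1* in *ros1* IM, and *PIP1A* is the one line that runs upward, from 36.8 to 47.0 in *ros1*.

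The first question was how the wild type responded to imazethapyr. All 10 genes had a lower FPKM in WT IM than in WT control, and 8 of the 10 were lower by at least 2-fold. Over all 18829 genes that reached FPKM 1 in either group, 18.7% were lower by that much. Among the 1673 genes that reached FPKM 100 in WT control, a level that all 10 aquaporins reached, it was 39.7%. The median difference of the 10 genes in log2(FPKM + 1) was -2.22, beside 0.01 over all genes and -0.61 over those that reached FPKM 100 in WT control. The remaining 2 genes lay just short of 2-fold, *PIP1A* at 1.99-fold and *PIP2E* at 1.88-fold. The 4 TIPs were lower by 10.2- to 15.3-fold and the 6 PIPs by 1.88- to 6.85-fold, so the ranges of these 10 genes did not overlap between the classes. This holds for the chosen genes and not for the whole family, since *PIP2C* (*PIP2;3*), a PIP outside the 10, was 16.2-fold lower.

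The same comparison in *ros1* had 9 of the 10 genes lower by at least 2-fold, beside 26.8% of 16403 genes and 48.7% of the 1602 genes that reached FPKM 100 in WT control. The files give *ros1* IM values for 17284 genes that the authors' comparisons list, so this background covers a selected set. The median difference was -2.33, beside 0.10 over all genes and -0.90 over those at FPKM 100 or more in WT control. The TIPs were lower by 9.27- to 148-fold. The 5 PIPs that were lower spanned 2.37- to 8.21-fold, again below every TIP of the 10, and *PIP1A* was 1.27-fold higher. PIPs outside the 10 reached the range of the TIPs here too, with *PIP2;8* 53.7-fold lower and *PIP1C* 18.8-fold lower.

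**Figure D2:**
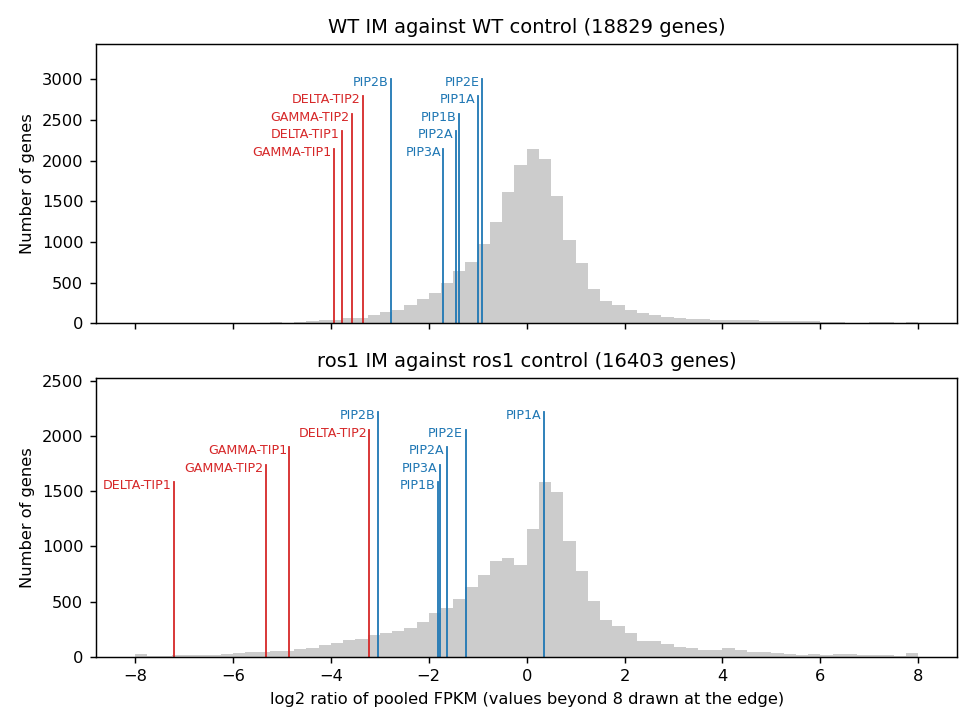
Numbers of genes (bars, bins of 0.25) by the log2 ratio of pooled FPKM, IM over control, in WT (18829 genes) and *ros1* (16403 genes), with the 10 aquaporins as vertical lines (TIPs red, PIPs blue, with line height of no meaning). In both genotypes the 4 TIPs lie to the left of the 6 PIPs drawn, from -3.35 to -3.93 in WT and from -3.21 to -7.21 in *ros1*.

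*GAMMA-TIP1* (AT2G36830, chromosome 2, 15445425 to 15446574 in TAIR10, the build of the files, 2 exons) encodes a water channel of the central vacuole. Its FPKM was 1196 in WT control, 78.3 in WT IM, 599 in *ros1* control and 20.8 in *ros1* IM. It was the highest of the 10 genes in both control groups and stood 5th in WT IM and 6th in *ros1* IM. The treated level was 15.3-fold lower in WT, with 0.967% of all genes having a lower ratio, and 28.8-fold lower in *ros1*. The gene alone made up 25.7% of the FPKM that the 10 genes lost in WT.

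*GAMMA-TIP2* (AT3G26520, chromosome 3, 9722443 to 9723815, 2 exons), its closest relative here, also encodes a vacuolar water channel. The FPKM was 875 in WT control, 74.0 in WT IM, 444 in *ros1* control and 11 in *ros1* IM. Both treated groups lay far below both control groups, by 11.8-fold in WT and 40.2-fold in *ros1*. The response ratio in *ros1* was thus 3.40-fold lower than that in WT.

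*DELTA-TIP1* (AT3G16240, chromosome 3, 5505404 to 5508414 for a locus that the files share with AT3G16250, 3 exons) encodes a channel known to carry ammonia as well as water into the vacuole. Its control levels lay close together, at 436 in WT and 397 in *ros1*. After treatment it had an FPKM of 32.0 in WT IM and 2.69 in *ros1* IM, the lowest of the 10 genes in each. These were folds of 13.6 in WT and 148 in *ros1*, and 1.03% of genes had a lower ratio in *ros1*. The response ratios of the genotypes differed by 10.9-fold, the widest gap of the 10 genes. AT3G16250 lies on the opposite strand and overlaps *DELTA-TIP1* over 120 exon bases in TAIR10.1, and the library kit did not mark strand. Its own FPKM was 269 in WT control, 56.9 in WT IM, 264 in *ros1* control and 6.44 in *ros1* IM, and 21 of the 1090 windows of 100 bases (1.93%) of the *DELTA-TIP1* transcript also occur there. A further 46 exon bases overlap AT3G03265.

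*DELTA-TIP2* (AT4G17340, chromosome 4, 9699253 to 9700410, 2 exons) encodes another vacuolar channel of the TIP2 class. Its FPKM was 344 in WT control, 33.8 in WT IM, 59.2 in *ros1* control and 6.39 in *ros1* IM. It was already 5.81-fold lower in the untreated mutant than in WT control, the widest such gap of the 4 TIPs. *GAMMA-TIP1* (1.996-fold), *GAMMA-TIP2* (1.97-fold) and *DELTA-TIP1* (1.10-fold) were lower there by less. Its response was of like size in the genotypes, 10.2-fold lower in WT and 9.27-fold in *ros1*.

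*PIP1A* (AT3G61430, chromosome 3, 22733309 to 22735335, 4 exons) encodes a PIP1 protein of the plasma membrane. The FPKM was 151.8 in WT control, 76.1 in WT IM, 36.8 in *ros1* control and 47.0 in *ros1* IM. It was the lowest of the 10 genes in both control groups. The treated level was 1.99-fold lower than control in WT and 1.27-fold higher in *ros1*, the one treated value of the 10 genes above its control. A ratio lower than this was found in 57.9% of genes in *ros1*, which places it near the middle of the distribution.

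*PIP1B* (AT2G45960, chromosome 2, 18910295 to 18911982, 4 exons) is known as a main PIP of leaves and as a facilitator of carbon dioxide transport. Its FPKM was 986 in WT control, 378 in WT IM, 532 in *ros1* control and 152.1 in *ros1* IM. It was 2.61-fold lower after treatment in WT and 3.50-fold lower in *ros1*. In both treated groups it was the highest of the 10 genes, in the place held by *GAMMA-TIP1* among controls.

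*PIP2A* (AT3G53420, chromosome 3, 19803655 to 19805713, 4 exons) encodes a well-studied water channel of the rosette and root, known to act also in guard cells. The FPKM was 633 in WT control, 231 in WT IM, 237 in *ros1* control and 76.5 in *ros1* IM. The untreated mutant thus stood at nearly the level of the treated wild type. The treated level was 2.74-fold lower in WT and 3.10-fold lower in *ros1*.

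*PIP2B* (AT2G37170, chromosome 2, 15613402 to 15614857, 4 exons) is a close relative, known for its part in water uptake by roots. Its FPKM was 243 in WT control, 35.6 in WT IM, 52.3 in *ros1* control and 6.37 in *ros1* IM. With folds of 6.85 in WT and 8.21 in *ros1*, it had the steepest response of the 6 PIPs in each genotype. Its neighbour *PIP2C* shares 143 of its 1246 windows of 100 bases (11.5%), so reads from these windows cannot be assigned to either gene by sequence. *PIP2C* had an FPKM of 141.7 in WT control, 8.72 in WT IM, 16.9 in *ros1* control and 9.15 in *ros1* IM. No window of the 8 members other than this gene and *DELTA-TIP1* occurred in another gene.

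*PIP2E* (AT2G39010, chromosome 2, 16291477 to 16294034, 4 exons) encodes a PIP2 channel expressed mainly in leaves. Its FPKM was 225 in WT control, 119.9 in WT IM, 177 in *ros1* control and 74.7 in *ros1* IM. The level kept in WT IM was 53.2% of control, the largest share of the 10 genes in that genotype. In *ros1* it was 2.37-fold lower after treatment.

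*PIP3A* (AT4G35100, chromosome 4, 16708552 to 16710289, 4 exons) encodes a PIP2 channel known to be lowered by salt. The FPKM was 464 in WT control, 143 in WT IM, 407 in *ros1* control and 119.0 in *ros1* IM. Treated levels were 3.25-fold lower in WT and 3.42-fold lower in *ros1*. The genotypes lay within 1.20-fold of each other in each treatment, the closest of the 10 genes once both treatments are counted.

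The make-up of the transcripts of these 10 aquaporins therefore differed between control and treated rosettes. TIPs held 51.3% of the summed FPKM of the 10 genes in WT control and 51.0% in *ros1* control, but 18.2% in WT IM and 7.92% in *ros1* IM. The summed TIP level went from 2851 to 218 FPKM in WT and from 1499 to 40.9 in *ros1*. The summed PIP level went from 2703 to 983 and from 1443 to 476. Among PIPs, the PIP1 and PIP2 sums were lower by similar folds, 2.51 and 2.96 in WT and 2.86 and 3.16 in *ros1*. The spread among the 10 genes also widened, from a 7.88-fold range between the highest and lowest in WT control to 11.8-fold in WT IM, and from 16.3-fold in *ros1* control to 56.6-fold in *ros1* IM.

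**Figure D3:**
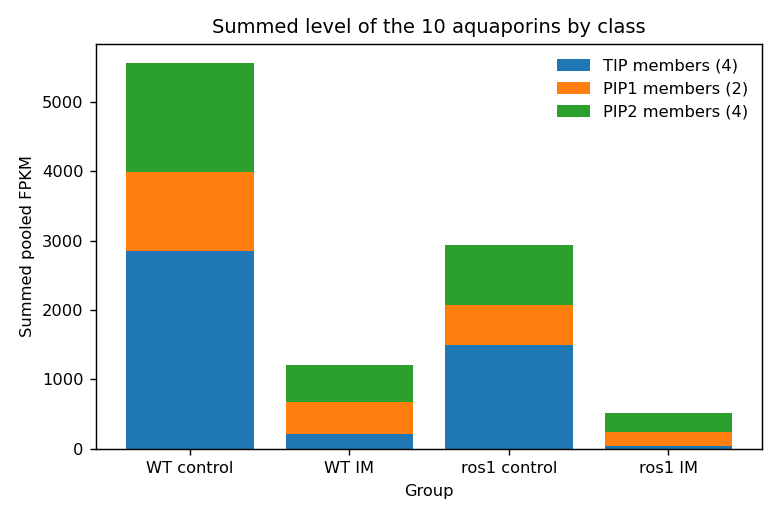
Summed pooled FPKM of the 4 TIPs, 2 PIP1 and 4 PIP2 genes, stacked from 0, in each group, with no error since each group has 1 pooled value. The TIP block is about as tall as both PIP blocks together in the controls (2851 beside 2703 in WT) and is the thinnest block in both treated groups.

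The comparison of untreated plants asked what the *ros1* allele alone went with. All 10 genes had a lower FPKM in the untreated mutant than in WT control, although 3 of them turned when values were scaled by 6 reference genes, and 4 were lower by at least 2-fold, beside 10.5% of 18799 genes and 8.96% of those that reached FPKM 100 in WT control. These were *DELTA-TIP2* (5.81-fold), *PIP2B* (4.66-fold), *PIP1A* (4.12-fold) and *PIP2A* (2.67-fold). *GAMMA-TIP1*, at 1.996-fold, *GAMMA-TIP2* at 1.97-fold and *PIP1B* at 1.85-fold lay close to it. *PIP2E*, *PIP3A* and *DELTA-TIP1* lay within 1.27-fold of the wild type, and these were the genes whose direction turned under reference gene scaling, to log2 ratios of 0.11, 0.27 and 0.32. The median difference over the 10 genes was -0.99, beside 0.01 over all genes and -0.11 over those at FPKM 100 or more in WT control.

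Among treated plants all 10 genes were again lower in *ros1*, except that *PIP3A* turned to 0.073 on the log2 scale under reference gene scaling, and 7 of them were lower by at least 2-fold, beside 22.9% of 16329 genes and 38.5% of those that reached FPKM 100 in WT control. The median difference was -1.72, beside 0.02 over all genes and -0.56 over those at FPKM 100 or more in WT control. The widest gaps were those of *DELTA-TIP1* (11.9-fold), *GAMMA-TIP2* (6.70-fold), *PIP2B* (5.58-fold) and *DELTA-TIP2* (5.29-fold). *PIP2E* at 1.604-fold, *PIP1A* at 1.62-fold and *PIP3A* at 1.20-fold stayed under 2-fold.

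Set against each other, the responses of the genotypes differed by at least 2-fold in 3 of the 10 genes. For *GAMMA-TIP2* and *DELTA-TIP1* the ratio was lower in *ros1*, which makes 2 of 10 beside 18.2% of 15554 genes, and for *PIP1A* it was 2.54-fold higher in *ros1*, 1 of 10 beside 8.67%. Both shares are near the background. The differences between responses were not tested.

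**Figure D4:**
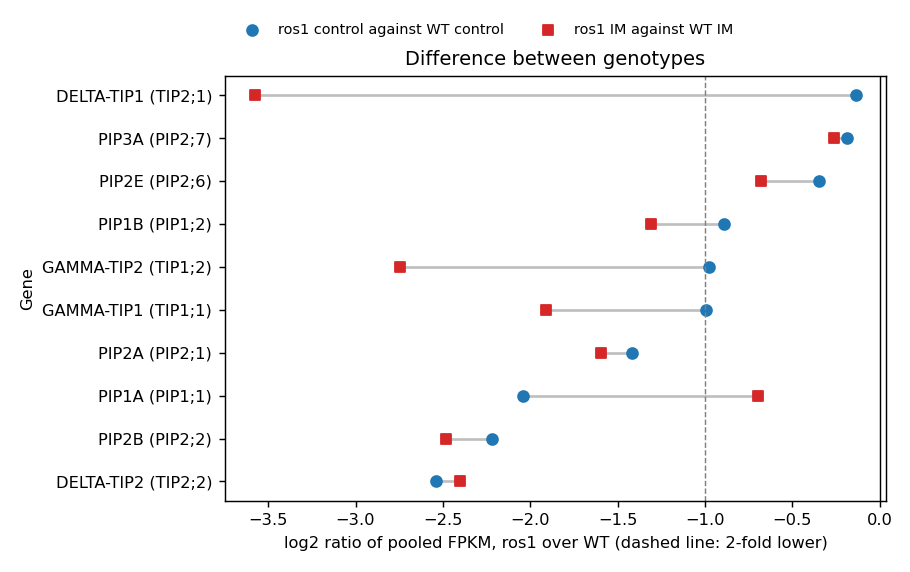
log2 ratio of pooled FPKM, *ros1* over WT, for each of the 10 aquaporins among controls (circles) and treated plants (squares), where a grey line joins both values of a gene, and the dashed line marks 2-fold lower. All 20 points lie below 0 as deposited (4 turn under reference gene scaling), with the longest lines for *DELTA-TIP1* (-0.14 to -3.58) and *GAMMA-TIP2* (-0.98 to -2.75), and with *PIP1A* going the other way (-2.04 to -0.70).

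The family holds 25 more aquaporins, of which 12 reached an FPKM of 10 in some group. In WT IM 8 of the 14 that reached FPKM 1 were lower by at least 2-fold and 2 were higher, beside 18.7% lower and 14.8% higher over all genes. In *ros1* IM 8 of 13 were lower and 1 was higher (26.8% and 20.7% of all genes), the lower ones including the NIP gene *NLM1*, listed at 0 in *ros1* IM. Between controls 2 of 15 were lower in *ros1* and none was higher (10.5% and 6.55% of all genes), so that the share lower was near the background. Between treated plants 4 of 12 were lower and 1 was higher (22.9% and 13.2%).

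Other PIPs mostly had the direction of the 6 described. *PIP1C* went from 286 to 38.1 FPKM in WT and from 216 to 11.5 in *ros1*. *PIP2;8* went from 45.5 to 7.63 and from 38.7 to 0.72. *PIP1;4* was among those that differed less, from 214 to 145 in WT and from 201 to 85.3 in *ros1*. *PIP1;5* had 68.8 and 25.9 in WT and 82.5 and 14.2 in *ros1*, and *PIP2;5* had 31.1 and 28.3 in WT and 17.7 and 6.30 in *ros1*.

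The nodulin 26-like intrinsic proteins (NIPs), which carry small solutes such as boric acid, gave a divided picture. *NIP5;1*, the boric acid channel known from roots, had 4.45 FPKM in WT control, 9.27 in WT IM, 5.29 in *ros1* control and 18.8 in *ros1* IM, and was thus higher in each treated group. *NIP6;1*, a boric acid channel of young shoots, went from 11.7 to 4.61 in WT and from 7.37 to 0.42 in *ros1*. *NIP1;2* had 14.7 and 7.26 in WT and 7.69 and 3.80 in *ros1*.

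The small basic intrinsic proteins (SIPs), which reside in the endoplasmic reticulum, had no value lower after treatment. *SIP1A* had 63.5 FPKM in WT control, 72.0 in WT IM, 71.3 in *ros1* control and 130.6 in *ros1* IM. *SIP1;2* had 5.02, 10.5, 9.41 and 14.7 in the same order. *SIP2;1* had 34.4, 51.1 and 46.3 in the first 3 groups and no value in *ros1* IM. The remaining 13 aquaporins stayed under an FPKM of 10 in every group with a value, at most 4.65.

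**Figure D5:**
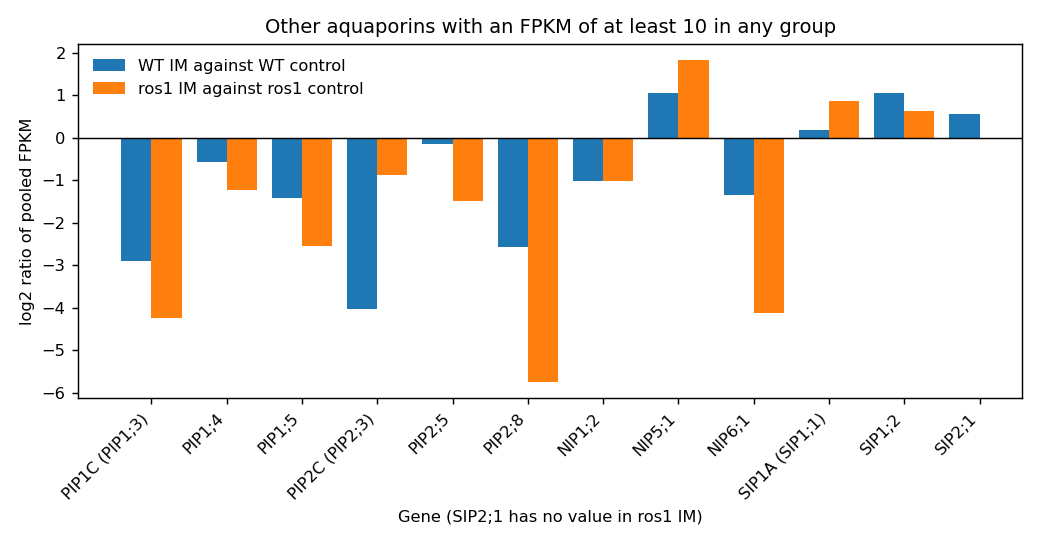
log2 ratio of pooled FPKM, IM over control, in WT and *ros1* for the 12 other aquaporins that reached an FPKM of 10 in any group, with no error. The 6 PIPs and 2 NIPs lie below 0 in both genotypes, while 1 NIP and the SIPs with a value lie above 0.

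Aquaporins work beside proton pumps that energise the same membranes. The counts on the pump and traffic lists below stand beside 18.7% of all genes lower and 14.8% higher in WT, and 26.8% lower and 20.7% higher in *ros1*. Of 10 genes for vacuolar proton pumps, 1 was lower by at least 2-fold in WT IM, *AVP1*, the vacuolar pyrophosphatase, at 603 FPKM in control and 212 in WT IM. It stood at 513 in *ros1* control and 206 in *ros1* IM, and was again the one such gene lower, of 8 with a value. Its folds were 2.84 and 2.49, well below those of the TIPs in the same membrane. By ratio, the largest rise on this list was that of *VHA-D* in WT (149.8 to 158.7 FPKM) and *VHA-B1* in *ros1* (100.3 to 121.8).

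Of 6 genes for plasma membrane proton pumps, 2 were lower in WT IM, *AHA2* (134.3 to 66.1 FPKM) and *AHA11* (62.3 to 19.8), and 1 was higher, *AHA4* (0.68 to 2.41). In *ros1*, of 4 with a value, *AHA11* was lower (75.3 to 4.31) and *AHA2* had the largest rise by ratio (148.8 to 194.4). *AHA4* had no value in *ros1* IM. *AHA1*, a main pump of leaves, differed by at most 1.32-fold in any of the 4 comparisons.

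Of 7 genes that act on aquaporin traffic and activity, 1 was lower and 2 were higher in WT IM, and 1 was lower and 1 was higher in *ros1* IM. *TSPO*, whose product binds PIP3A and directs it to degradation by autophagy, had the largest rise by ratio, from 2.19 to 45.9 FPKM in WT and from 0.45 to 13.0 in *ros1*. *SIRK1*, a receptor kinase that acts on PIP2 channels, had the largest fall by ratio, from 14.5 to 4.58 and from 12.9 to 3.80.

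Markers of other cell types were read beside these values. The 5 leaf markers, genes of the Rubisco small subunit, the light-harvesting antenna and photosystem I, summed to 55608 FPKM in WT control, 11844 in WT IM, 52604 in *ros1* control and 1414 in *ros1* IM. All 5 were lower by at least 2-fold after treatment in both genotypes, and none of the 5 was between the controls. Over all genes the shares lower were 18.7% in WT, 26.8% in *ros1* and 10.5% between the controls. Among genes that reached FPKM 100 in WT control, as all 5 did, they were 39.7%, 48.7% and 8.96%. Between treated plants all 5 were also lower in *ros1*, by 5.87-fold or more. The shares lower by at least 2-fold there were 22.9% of all genes and 38.5% of those that reached FPKM 100. The 5 guard cell and vein markers summed to 424, 272 (4 with a value), 386 and 232 FPKM. After treatment 3 of the 4 with a value were lower by at least 2-fold in WT, and 2 of 5 were in *ros1*. The shares over all genes are those given above for each genotype. None of these markers was lower or higher by that much between the genotypes, among controls or among treated plants. No root or seed marker had a value in *ros1* IM. In the other 3 groups the root markers with a value were at or near 0, with *NRT2.1* highest at 1.13 FPKM and *EXPA7* and *EXPA18* at 0. The seed markers summed to at most 0.24 there. The part of leaf, guard cell and vein transcripts in the aquaporin differences was not tested.

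By Euclidean distance over 3 log2(FPKM + 1) differences from WT control, the genes outside the family closest to the median profile of the 10 were sought among 9810 genes. These were AT5G55220 (distance 0.13), AT4G24750 (0.23), *ACL* (AT2G23600, 0.24), AT4G32800 (0.27) and *EMB3119* (AT3G04790, 0.31). AT5G55220, for example, had 178.6 FPKM in WT control, 39.8 in WT IM, 91.4 in *ros1* control and 9.16 in *ros1* IM. The 10 genes themselves lay farther from their median, from 1.34 for *PIP2A* to 3.33 for *DELTA-TIP1*.

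Since the genes differed in the same direction in most comparisons, their promoters were read from 250 bases before to 50 after the annotated start, on both strands, for 4 motifs. The core of the abscisic acid response element, ACGTG, was found in 1 of 10, *GAMMA-TIP1*, beside 26.7% of 27443 promoters. The G-box CACGTG, which holds that core, was in 0 of 10 beside 7.68%. The W-box core TTGAC was in 3 of 10, *GAMMA-TIP2*, *PIP2A* and *PIP3A*, beside 50.5%. The evening element AAATATCT was in 0 of 10 beside 5.65%.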

How the data were processed

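RNA-seq reads were made from unstranded libraries, 2 per group and 8 in all. As the study's methods and the submitters' notes give it, quality control used FastQC 0.10.1, trimming used the FASTX-Toolkit, and reads were aligned to TAIR10 with Bowtie2 and TopHat2. The study reports a smaller share of aligned reads for *ros1* than for the wild type. Its part in the differences between genotypes was not tested. The deposited FPKM values were computed by the authors with Cufflinks and Cuffdiff as 1 estimate per group. Versions of these tools and the annotation release are not given in the sources used here. Pooling hides the spread between libraries, so no test was possible, and FPKM is relative to each group's total.

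Pooled FPKM was read from 7 tables, and 157256 repeated values were compared, of which 0 differed. WT IM covered 32920 genes. Further columns hold the authors' fold changes, test statistics, p-values, q-values and calls. They were not used.

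The members and lists were chosen with earlier results of these data known. Folds are ratios of FPKM, medians use log2(FPKM + 1), and counts took genes that reached FPKM 1 in either group. Named were all 10 members, other aquaporins that reached FPKM 10 in any group, the largest rise and fall by ratio on each pump and traffic list, and the 5 nearest genes that reached FPKM 10 in WT control. *AHA1*, *AHA2* in WT, the overlapping genes, *ROS1* and *NLM1* were named outside that rule, after their values were seen. Sequences came from TAIR10.1, where 31416 of 34133 identifiers matched a locus tag. Scaling, folds, filters and pseudocounts were varied. The counts and scaling were tested on simulated data (Python 3.11.15, pandas 2.3.3, NumPy 2.4.6, matplotlib 3.10.9).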

Additional observations from a re-analysis of the deposited data

Results flagged for a closer look

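*PIP1A* moved in opposite directions in the genotypes. Its log2 ratio of IM over control was -0.996 in WT (151.8 to 76.1 FPKM) and 0.35 in *ros1* (36.8 to 47.0 FPKM). The ratio in *ros1* stayed above 0 under each of 3 scalings, and that in WT stayed below 0. In *ros1* 57.9% of genes had a lower ratio, so this value lay near the middle of the distribution. The share of all genes with opposite directions in the genotypes was not computed. Each value comes from 1 pooled estimate per group, and the difference was not tested.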

How the results depend on the processing

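No paired analysis was possible because the columns carry no replicate numbers and each value pools the libraries of a group, and for the same reason no library could be left out. Of 120 log2 ratios of the 10 genes under 3 scalings, 116 kept their direction. The 4 that reversed did so under scaling by 6 reference genes, 0.32 for *DELTA-TIP1*, 0.11 for *PIP2E* and 0.27 for *PIP3A* in *ros1* control over WT control, and 0.073 for *PIP3A* in *ros1* IM over WT IM. These reference genes were not stable themselves, since *UBQ10* had 712 FPKM in WT control and 163 in *ros1* control, 4.37-fold lower. Of 76 counts and medians under the alternatives, 54 stayed within 1.5 times the count or 0.1 log2 of the median, and 22 did not. At a fold of 4, 5 members were lower in WT IM, 5 in *ros1* IM and 4 in *ros1* IM against WT IM, and 4, 5 and 1 other aquaporins in WT IM, *ros1* IM and *ros1* control. At a fold of 1.5, 7 members and 5 others were lower in *ros1* control, and 7 others in *ros1* IM against WT IM. With an FPKM of at least 10 in either group, 5, 1 and 2 others were lower in *ros1* IM, *ros1* control and *ros1* IM against WT IM. Shares over all genes were not computed at these folds, at this FPKM floor or under the scalings below. The counts in this section thus have no background beside them. Scaling to the same sum gave members' medians of -1.78 in WT and -1.97 in *ros1*, and 4 others lower in WT IM. Reference gene scaling gave medians of -2.45 (*ros1* response), -0.53 (*ros1* control against WT control) and -1.40 (*ros1* IM against WT IM), and 1 other lower in *ros1* control. Summing *PIP2B* and *PIP2C*, chosen after seeing the data, gave medians of -2.39, -1.94 and -1.52 for the WT response, the *ros1* response and the treated genotypes. Same-sum scaling used the 17187 genes with a value in all 4 groups. The log2 ratio of FPKM summed over them, IM over control, was -0.44 in WT and -0.39 in *ros1*, which is what this scaling removes.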
